A study of Homo sapiens with 36 samples.

Results

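The 9 genes described here are NEUROG2, which encodes NGN2, and 8 transcription factor genes linked to proneural activity: NEUROG1, NEUROD1, NEUROD2, NEUROD4, NEUROD6, NHLH1, NHLH2 and INSM1. They were taken by symbol from 62710 genes in the deposited tables; the rule uses no measured value, but earlier results of these data were known when the genes were chosen. The libraries came from H9, a human embryonic stem cell line, in which doxycycline switches on NGN2 and turns the cells into neurons. The lines were labelled WT, HET (RAI1 +/-) and KO (RAI1 -/-), and each was harvested on day 0, day 3 and day 7, with 4 libraries in each of the 9 groups and 36 in all. Stem cells were kept on Geltrex in mTeSR Plus with a ROCK inhibitor at plating. One neuronal medium is given for all cultures, Neurobasal-A with B27 and GlutaMAX, the growth factors NT3 and GDNF, and CultureOne, and doxycycline was present during induction. The labels do not give the number of clones behind each genotype, nor the promoter or species of the NGN2 transgene, and NEUROG2 counts can hold transgene and endogenous transcripts together. The labels call the replicates biological without naming separate clones or cultures, so p-values measure the spread between these libraries.

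Proneural factors are basic helix-loop-helix (bHLH) proteins that bind the DNA letters CANNTG, called E-boxes, as pairs with an E protein, and commit progenitors to a neuronal fate. Neurogenins act early and switch on later bHLH genes of the NEUROD and NHLH families, which carry differentiation forward. INSM1 is not a bHLH factor but a zinc finger protein that acts with the cascade in neuronal and neuroendocrine precursors. ID, HES and HEY proteins oppose the cascade, and REST holds neuronal genes silent outside neurons.

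To show the letters such factors can read near these genes, 250 bases before the RefSeq start site (GRCh38.p14) were searched on both strands for CANNTG and for the CAGATG form that neurogenins and NEUROD factors are known to favour. A window was found for 8 of the 9 genes, with a pair for NHLH2, giving 9 windows; INSM1 had none. CANNTG was present in 6 of 9 windows, against 61.8% of 35116 windows of the same length in RefSeq, and CAGATG, itself 1 form of CANNTG, in 4 of 9, against 12.2%. The 5 windows below were picked to show each case: CAGATG in NHLH1, 1 of the windows of NHLH2 and NEUROD6, other E-boxes alone in NEUROD4, and no E-box in NEUROD1. Each is written 5′ to 3′ on the gene's own strand and ends at the base before the start site, with every E-box in capitals.
NHLH1 (chr1:160366821-160367070, plus strand): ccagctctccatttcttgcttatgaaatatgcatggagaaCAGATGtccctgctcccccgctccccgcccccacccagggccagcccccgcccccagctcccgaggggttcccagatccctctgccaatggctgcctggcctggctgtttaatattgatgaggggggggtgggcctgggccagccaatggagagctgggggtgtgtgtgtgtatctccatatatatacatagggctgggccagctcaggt
NHLH2 (chr1:115841127-115841376, minus strand): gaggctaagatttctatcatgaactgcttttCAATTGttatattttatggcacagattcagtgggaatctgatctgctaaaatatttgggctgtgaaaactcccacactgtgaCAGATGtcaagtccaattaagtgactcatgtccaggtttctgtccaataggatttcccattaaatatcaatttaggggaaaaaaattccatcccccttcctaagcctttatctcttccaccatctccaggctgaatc
NEUROD4 (chr12:55019724-55019973, plus strand): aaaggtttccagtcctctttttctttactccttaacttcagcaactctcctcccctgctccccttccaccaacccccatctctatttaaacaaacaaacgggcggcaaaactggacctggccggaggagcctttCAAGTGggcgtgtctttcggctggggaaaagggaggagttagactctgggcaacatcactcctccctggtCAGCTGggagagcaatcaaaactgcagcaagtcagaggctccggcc
NEUROD1 (chr2:181680518-181680767, minus strand): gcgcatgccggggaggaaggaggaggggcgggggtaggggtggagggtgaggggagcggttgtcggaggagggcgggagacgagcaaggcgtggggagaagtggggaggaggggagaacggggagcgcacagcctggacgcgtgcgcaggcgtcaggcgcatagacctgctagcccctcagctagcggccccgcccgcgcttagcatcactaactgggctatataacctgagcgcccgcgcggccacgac
NEUROD6 (chr7:31340727-31340976, minus strand): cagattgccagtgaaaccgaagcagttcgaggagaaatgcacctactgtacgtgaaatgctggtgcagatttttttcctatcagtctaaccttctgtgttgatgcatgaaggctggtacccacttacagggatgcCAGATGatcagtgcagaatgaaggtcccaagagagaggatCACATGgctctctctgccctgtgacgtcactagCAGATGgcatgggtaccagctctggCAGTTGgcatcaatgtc
The CAGATG form began 210 bases before the start of NHLH1 and 137 bases before this start of NHLH2; the window of the other NHLH2 start, not shown, held CAGCTG at 78 bases and no CAGATG. NEUROD6 held it at 115 and 42 bases before its start. NEUROD4 held CAAGTG at 116 and CAGCTG at 46 bases, and the NEUROD1 window held no E-box. A match describes these letters only and says nothing of binding.

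Library totals were 23.9 to 56.7 M counts, and 1 batch label covered all libraries. On day 0 the summed level of 8 pluripotency markers was 4186 to 6971 CPM (counts scaled to a common library total) in the 12 libraries; it was 203 to 451 CPM on day 3. On day 7 it was 57.97 to 92.11 CPM in WT, 87.35 to 218.3 in HET and 285.4 to 337.8 in KO, so the KO sum lay wholly above both. POU5F1 and TDGF1 held at most 3 counts in every KO library that day, so this sum rests on other markers of the list. Only 4 of the 8 had enough counts to be tested in KO against WT, with 3 called higher and 1 lower. The summed level of 11 neuronal markers was 276.4 to 812.4 CPM on day 0. On day 3 it was 1477 to 1950 CPM in WT, 2281 to 5270 in HET and 5366 to 10611 in KO, without overlap. The 5 small structural RNAs took 4.02% to 6.45% of counts on day 0, 3.54% to 19.6% on day 3 and 2.84% to 27.5% on day 7. HET day 7 replicate 1 stood apart, correlating with its group at r 0.917 to 0.931 across genes, where the other 3 gave 0.972 to 0.991 among themselves, and 27.5% of its counts were small structural RNAs against 2.84% to 13.4% in them. HET day 3 replicate 4 also correlated less with its group, at r 0.934 to 0.962, where the other HET day 3 libraries gave 0.979 to 0.993 among themselves. RAI1, the targeted gene, was 36.1, 41.5 and 40.3 CPM on average in WT, HET and KO on day 0, was not lower in the mutants on any day, and was called higher in KO on day 7 (log2 0.69, SE 0.22, edgeR adjusted p 0.0296), so its level gives no check of the genotype labels.

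**Figure D1:**
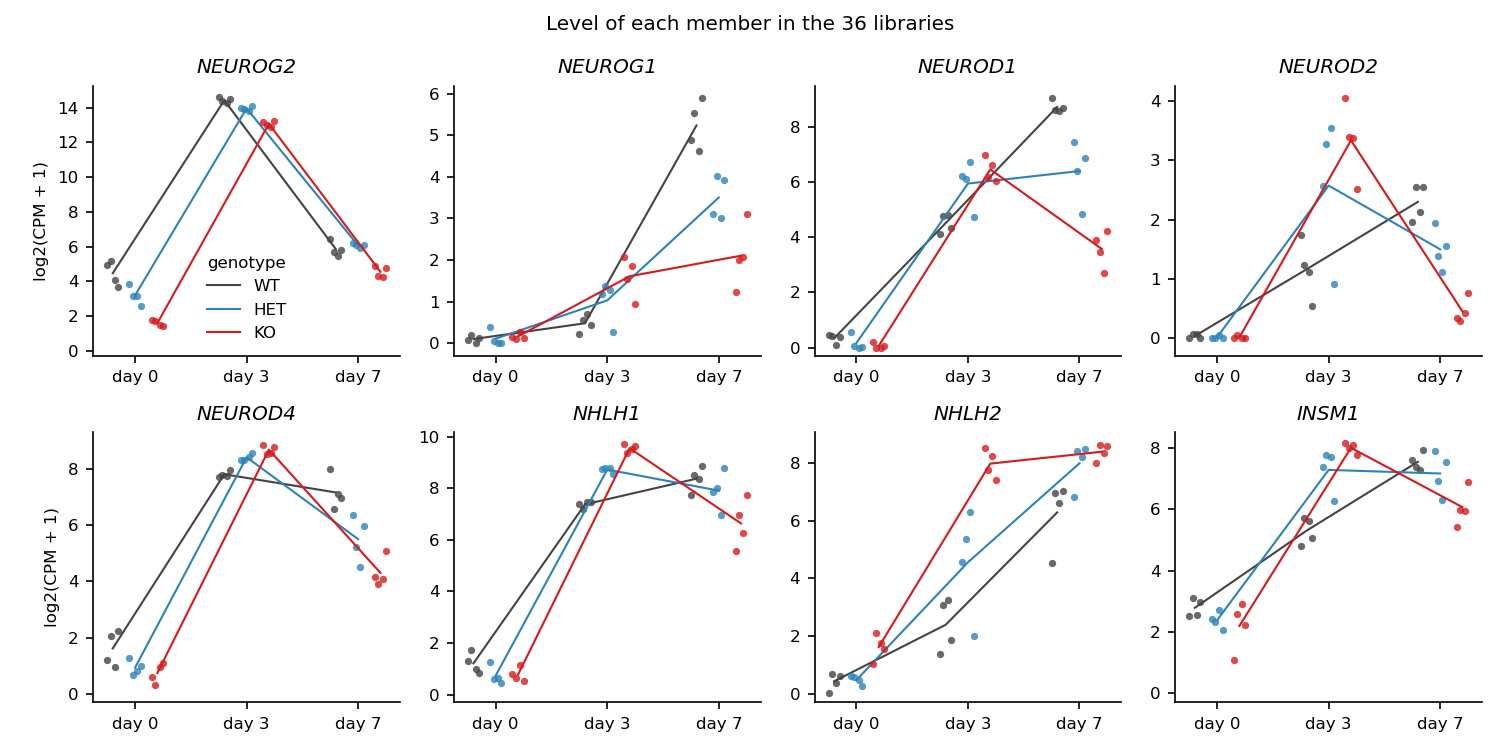
Level of each gene as log2(CPM + 1) in every library (points) and the group mean (lines) on days 0, 3 and 7 in WT, HET and KO; NEUROD6 is left out because it had at most 1 count. Of the 8 genes, 7 stand higher in KO than in WT on day 3, and NEUROG2 lower. On day 7, 6 of the 8, NEUROG2 among them, stand lower in KO without overlap, NHLH1 overlaps WT and NHLH2 stands higher.

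NEUROG2 itself, on chromosome 4 (112513516 to 112516172, minus strand, GRCh38, GENCODE 29), was the most induced of the 9 genes. In WT it went from 30, 34.5, 16 and 11.6 CPM on day 0 to 24748, 21254, 19469 and 23260 CPM on day 3, then to 86.5, 49.8, 43.6 and 55.7 CPM on day 7. Day 3 counts of this gene made up 2.22% ± 0.23 of a WT library (SD, n = 4), 1.60% ± 0.13 of a HET library and 0.868% ± 0.107 of a KO library. The level rose and fell in every genotype: the log2 change from day 0 to day 3 was 10.02 in WT (SE 0.45), 10.99 in HET (SE 0.40) and 12.20 in KO (SE 0.31), and from day 3 to day 7 it was -8.45, -7.84 and -8.47, all called.

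The genotypes began and peaked at different NEUROG2 levels. On day 0 the HET libraries held 13.2, 8.03, 7.98 and 5.07 CPM and the KO libraries 2.40, 2.28, 1.78 and 1.63 CPM. Every KO library was therefore below every WT and HET library, and 1 HET library reached into the WT range. KO was 11.4-fold lower than WT (log2 -3.48, SE 0.38, adjusted p 0.000168), among 0.416% of genes called lower; KO against HET was log2 -2.06 (SE 0.37, adjusted p 0.0154), lost on TPM (0.189) and on leaving out HET replicate 1 or KO replicate 3 or 4 (0.0501 to 0.0703). HET against WT was log2 -1.42 (SE 0.35, adjusted p 0.071), and it passed with the replicate number as a block (adjusted p 0.00373). On day 3 KO held 9403, 8075, 7505 and 9748 CPM and HET 16437, 15819, 14425 and 17470 CPM. The 3 day 3 groups did not overlap in CPM: KO was 2.55-fold lower than WT (log2 -1.34, SE 0.21, adjusted p 0.000526). KO against HET was log2 -0.88 (SE 0.20, adjusted p 0.0284), lost without the filter (0.0987), on TPM (0.837) and on leaving out HET replicate 1 or 4 or KO replicate 1, 2 or 3 (0.0535 to 0.0875). HET against WT was log2 -0.46 (SE 0.20, adjusted p 0.326; 0.0473 with the block). In TPM, which also scales by transcript length and by the length-weighted total of the library, the day 3 KO values of 1385 to 3877 overlapped the WT values of 2764 to 5419, and the call was lost in limma on log2(TPM + 1) (adjusted p 0.202). On day 7 KO held 28.1, 18.8, 18.3 and 25.9 CPM (log2 -1.38 against WT, adjusted p 0.000925, also lost on TPM at adjusted p 0.435), and HET, at 71.7, 66.3, 59 and 67 CPM, overlapped WT; KO against HET was log2 -1.51 (SE 0.24, adjusted p 0.00618; 0.172 on TPM).

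The row for the red reporter tdTomato moved with NEUROG2 on day 0: it was 157 ± 16.8 CPM in WT (SD, n = 4), 85.1 ± 14.6 in HET and 44.4 ± 7.51 in KO, with no overlap between genotypes. WT exceeded KO 3.54-fold in tdTomato and 11.4-fold in NEUROG2. On day 3 the tdTomato ranges overlapped (13.3 to 35.7 CPM in WT, 8.07 to 51.9 in HET and 7.16 to 18.5 in KO). On day 7 KO, at 6.37 to 10.8 CPM, again lay below WT (26 to 71.3 CPM) and HET (23.4 to 34.6), and its mean was 5.08-fold below that of WT. Which construct carries the reporter is not given, so lower NEUROG2 by genotype and lower expression of the transgene cannot be told apart. NEUROG2 also overlaps an antisense gene, which held at most 27 counts in a library; whether counting used strand was not given in the sources used here.

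**Figure D2:**
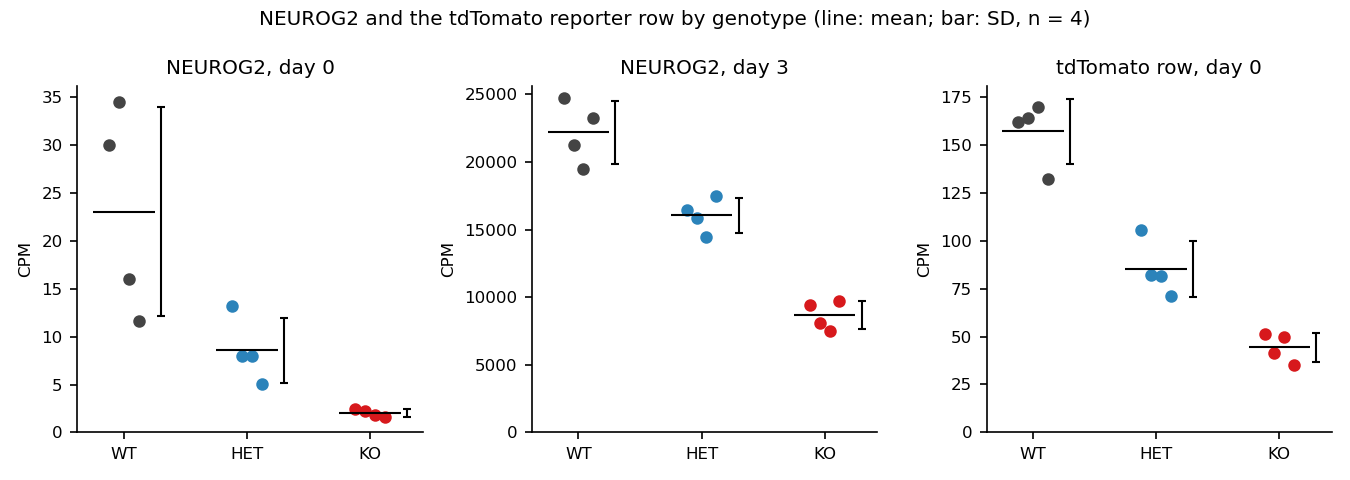
NEUROG2 on day 0 and day 3 and the tdTomato row on day 0, in CPM per library (points) with the mean (line) and SD (bar) of 4 libraries. In all 3 panels the mean is highest in WT and lowest in KO, and KO does not overlap WT.

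NEUROG1, the other neurogenin measured (chromosome 5, 135534282 to 135535949, minus strand), was nearly absent on day 0, at 0 to 11 counts per library. On day 3 it reached 0.175 to 0.632 CPM in WT, 0.219 to 1.62 in HET and 0.941 to 3.2 in KO. KO was 5.34-fold higher than WT on day 3 (log2 2.40, SE 0.55, adjusted p 0.00714), without overlap. By day 7 the order had turned: WT held 28.6, 45.4, 23.7 and 58.2 CPM, HET 7.56, 15.1, 7.01 and 14.1, and KO 1.36, 3.01, 3.19 and 7.67. All WT libraries stood above all HET and KO libraries. KO was 10.2-fold lower than WT (log2 -3.36, SE 0.47, adjusted p 0.000274) and HET 3.56-fold lower (log2 -1.89, SE 0.44, adjusted p 0.0125; 0.213 on TPM). WT day 7 led the order of the 9 groups and was clear of its neighbour HET day 7; each later pair of neighbours in the order overlapped.

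NEUROD1, a direct neurogenin target that opens neuronal chromatin (chromosome 2, 181673088 to 181680876, minus strand), took opposite courses in WT and KO. On day 3 WT held 16.5, 26, 26.9 and 19.3 CPM, HET 72.4, 68.1, 103.8 and 25.5, and KO 125.1, 71, 96.7 and 64.7. KO was 4.03-fold higher than WT (log2 2.01, SE 0.34, adjusted p 0.000987) and HET 3.04-fold higher (log2 1.60, SE 0.33, adjusted p 0.0181), although HET replicate 4 lay within the WT range. The HET call was lost on TPM (adjusted p 0.552) and on leaving out WT replicate 1 or 4 or HET replicate 3 (adjusted p 0.0593 to 0.0708). On day 7 WT held 517.1, 386.1, 374.9 and 407 CPM, HET 174.3, 83.9, 27.4 and 116.6, and KO 13.9, 10.1, 5.53 and 17.5. Here the 3 genotypes did not overlap at all. KO was 35.8-fold lower than WT (log2 -5.18, SE 0.58, adjusted p 6.82e-05), 8.55-fold lower than HET (log2 -3.14, SE 0.52, adjusted p 0.00846), and HET was 4.19-fold lower than WT (log2 -2.03, SE 0.50, adjusted p 0.0166; 0.0513 without HET replicate 2). From day 3 to day 7 NEUROD1 rose 19-fold in WT and fell 7.60-fold in KO, a difference of log2 -7.21 (SE 0.71, adjusted p 1.15e-08) in the fit over 36 libraries. NEUROD1 overlaps CERKL, so reads of the pair are uncertain. Over the same days the CERKL mean went from 2.46 to 29.1 CPM in WT and from 7.44 to 3.27 in KO.

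NEUROD4 (chromosome 12, 55019945 to 55030014, plus strand), another early neurogenin target, was already high on day 3 in all genotypes. WT held 207.4, 221.2, 214.8 and 250.1 CPM, HET 320.7, 317.6, 341.3 and 379.1, and KO 464.4, 366.2, 376.6 and 436.7. WT was below every HET and KO library, while HET and KO overlapped. KO was 1.84-fold higher than WT (log2 0.89, SE 0.17, adjusted p 0.0028; 0.0568 on TPM), and HET 1.52-fold (log2 0.61, SE 0.17, adjusted p 0.0804; 0.00935 with the block). By day 7 WT held 252.5, 93.5, 137.3 and 124.9 CPM, HET 80.1, 36, 21.5 and 61.2, and KO 16.7, 14.1, 15.9 and 32.7. KO had become 7.66-fold lower than WT (log2 -2.97, SE 0.49, adjusted p 0.000743) and HET 3.06-fold lower (log2 -1.60, SE 0.46, adjusted p 0.0348), the latter lost on TPM (adjusted p 0.187) and on leaving out WT replicate 1 or 3 or HET replicate 2, 3 or 4 (adjusted p 0.0597 to 0.108).

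NEUROD2 (chromosome 17, 39603536 to 39609777, minus strand), known from maturing cortical neurons, remained a low-count gene. Its highest group mean was 9.80 ± 4.44 CPM in KO on day 3 (SD, n = 4). WT held 0.454 to 2.34 CPM that day, HET 0.876 to 10.6 and KO 4.73 to 15.6, and KO was 7.37-fold higher than WT (log2 2.88, SE 0.61, adjusted p 0.00445). On day 7 KO had 0.225 to 0.692 CPM, below the 2.90 to 4.86 CPM of WT (log2 -3.42, SE 0.44, adjusted p 0.00017) and the 1.16 to 2.85 CPM of HET. In KO that was 10 to 23 counts per library, so passing the filter can rest on the WT and HET libraries. The day 7 calls of NEUROD2 in KO therefore describe the gene and support nothing further. The call against HET (log2 -2.36, SE 0.43, adjusted p 0.0154) was lost on TPM (0.344) and without KO replicate 1, 2 or 3 (0.0638 to 0.069). NEUROD6 (chromosome 7, 31337461 to 31340894, minus strand), a marker of forebrain pyramidal neurons, had 0 counts in 34 libraries and 1 count in each of the other two, and was tested nowhere.

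NHLH1 and NHLH2 encode closely related bHLH proteins that follow the neurogenins in newborn neurons. NHLH1 (chromosome 1, 160367067 to 160372848, plus strand) showed the cleanest order of genotypes on day 3. WT held 165.6, 145.3, 174.3 and 176.3 CPM, HET 430.8, 436.4, 444.5 and 378.4, and KO 829.3, 656.9, 725.5 and 797.4, with no overlap. KO was 4.55-fold higher than WT (log2 2.20, SE 0.17, adjusted p 3.02e-06), HET 2.56-fold higher (log2 1.35, SE 0.17, adjusted p 0.000394; 0.153 on TPM), and KO exceeded HET 1.78-fold (log2 0.85, SE 0.16, adjusted p 0.0123; 0.473 on TPM). On day 7 WT held 210.7 to 470 CPM, HET 125.2 to 436.8 and KO 46.7 to 214.5. KO against WT was then log2 -1.59 (SE 0.46, adjusted p 0.0179), a call lost on TPM (adjusted p 0.227) and without KO replicate 3 (0.0581), and HET overlapped WT (log2 -0.43, adjusted p 0.575).

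NHLH2 (chromosome 1, 115836377 to 115843917, minus strand) had the largest excess of KO over WT among the 8 genes tested on day 3, and KO was still above WT on day 7. Day 0 levels were already different: 1.07, 3.31, 2.43 and 1.92 CPM in KO against 0.03 to 0.62 in WT (log2 2.56, SE 0.56, adjusted p 0.0345), though the call was lost on leaving out WT replicate 3 or 4 or KO replicate 2, 3 or 4 (adjusted p 0.0645 to 0.129) and on TPM (0.0952). On day 3 WT held 1.60, 7.49, 8.47 and 2.63 CPM, HET 22.7, 40.1, 78.6 and 3.00, and KO 364.5, 217.7, 299.7 and 168.4. KO was 52-fold higher than WT (log2 5.70, SE 0.83, adjusted p 0.000361) and every KO library stood above every WT and HET library. KO against HET was log2 2.88 (SE 0.73, adjusted p 0.0405), lost on leaving out HET replicate 1 or 2 or KO replicate 1, 2 or 3 (0.0637 to 0.135). The HET spread ran from the WT range to 78.6 CPM, and HET against WT was log2 2.83 (SE 0.73, adjusted p 0.0537; 0.0125 with the block). On day 7 WT held 22, 124.9, 96.9 and 131.1 CPM, HET 113.5, 344.9, 298 and 354.3, and KO 257.2, 395.3, 321.7 and 385.1. KO was still 3.63-fold higher than WT (log2 1.86, SE 0.44, adjusted p 0.00636), and HET 2.96-fold (log2 1.47, SE 0.43, adjusted p 0.0374), a HET call lost when the structural RNA share entered the fit (adjusted p 0.125) and on leaving out WT replicate 2 or 3 or HET replicate 2, 3 or 4 (adjusted p 0.0645 to 0.0843). From day 3 to day 7 KO was not called (log2 0.50, SE 0.27, adjusted p 0.145), while WT rose 18.6-fold.

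INSM1 (chromosome 20, 20368121 to 20370949, plus strand) held 1.13 to 7.59 CPM in the stem cell libraries of day 0. On day 3 WT held 26.9, 51, 48.4 and 32.4 CPM, HET 167.1, 215.8, 209.3 and 76, and KO 283.2, 257.2, 272.7 and 216.1. The 3 genotypes did not overlap, but the highest HET library (215.8 CPM) nearly reached the lowest KO library (216.1 CPM). KO against HET was not called (log2 0.65, SE 0.28, adjusted p 0.227, and 0.0492 with the block). KO was 6.49-fold higher than WT (log2 2.71, SE 0.29, adjusted p 3.98e-05) and HET 4.21-fold (log2 2.06, SE 0.29, adjusted p 0.000948; 0.148 on TPM). On day 7 KO, at 42.1, 62.3, 61.1 and 118.8 CPM, stood below WT at 192.7, 166.4, 154.1 and 242.8 (log2 -1.43, SE 0.40, adjusted p 0.0149; 0.296 on TPM). HET, at 237.8, 120.7, 78.1 and 184.3 CPM, overlapped both. The highest value is that of HET replicate 1, the library that stood apart; HET against WT was log2 -0.27 (adjusted p 0.699) with it and -0.73 (adjusted p 0.127) without it.

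Counted together on day 0, 5 of the 9 genes had enough counts to be tested. In KO against WT 1 was called higher (NHLH2) and 1 lower (NEUROG2), where 1.66% and 0.416% of all genes were. None was called in HET by edgeR, where 1.63% of genes were; 2 had an unadjusted p under 0.05, and DESeq2 called 1. On day 3, 8 were tested: in KO 7 were called higher and 1 lower, where 12.6% and 8.93% of genes were, and all 7 stood wholly above WT, as did 11.1% of genes. The median log2 change of the 8 was 2.30, beside -0.05 over all genes tested. NEUROG1 had so few counts in WT that day (9 to 27) that its passing the filter can rest on the higher groups. NEUROD2 was also low in WT, at 19 to 120 counts. The numbers of genes called therefore describe the genes and support nothing further.

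In HET on day 3, 3 were called higher, where 2.52% of genes were. With the replicate block 7 were called, 6 higher and NEUROG2 lower. Libraries of the same number deviated together in this comparison at r 0.166 to 0.779. Only 2 of the 4 HET libraries were likest the WT library of their own number. HET replicate 4 stood lowest of its group in NEUROG1, NEUROD1, NEUROD2, NHLH1, NHLH2 and INSM1, and without it 6 were called. On day 7, 7 of 8 were called lower in KO, where 15.6% of genes were, and 1 higher, where 17% were; 6 stood wholly below WT, as did 18.3% of genes. NEUROD2, among those lower, held 10 to 23 counts in KO, so its passing the filter can rest on the other groups. In HET 3 were lower and 1 higher, where 6.1% and 8.31% were, and the count of 4 fell to 1 without HET replicate 2 and to 2 without WT replicate 3 or HET replicate 3 or 4. Without HET replicate 1 it was 5, with NEUROD2 (log2 -1.52, adjusted p 0.00637) added, and KO against HET still gave 3. The median log2 change on day 7 was -2.28 in KO and -0.74 in HET. Between the mutants, KO against HET gave 1 lower on day 0, where 0.333% of genes were. On day 3 it gave 2 higher and 1 lower, where 2.77% and 1.58% were, and 1 in all without HET replicate 1 or KO replicate 1, 2 or 3. On day 7 it gave 3 lower, where 0.737% were.

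In bulk RNA, fewer cells expressing a gene and less RNA per cell cannot be told apart. Beside the 7 genes that were higher in KO on day 3, 10 of 11 neuronal and 5 of 6 sensory neuron markers were called higher. Of the dividing cell markers, 4 of 8 were called lower. Over all genes that day 12.6% were called higher and 8.93% lower. The summed sensory neuron markers were then 96.6 to 128 CPM in WT and 342 to 853 in KO, and the dividing cell markers 1306 to 2882 and 609 to 1582. By day 7 the sensory neuron sums overlapped, at 585.1 to 631.4 CPM in WT and 437.2 to 799.5 in KO. Of those 6 markers 2 were then called higher in KO and 2 lower. On day 7, when 7 of the 8 were lower in KO, neuronal markers were not: they summed to 6782 to 13192 CPM in WT, 14108 to 21618 in HET and 17328 to 22452 in KO, with 6 of 11 called and all 6 higher. Summed dividing cell markers on day 7 were 39.6 to 252 CPM in WT against 19.4 to 31.5 in HET and 19.1 to 22.7 in KO, with 8 of 8 called lower in both mutants. Neural progenitor markers summed to 724 to 822 CPM in WT, 563 to 845 in HET and 426 to 490 in KO, with 3 of 7 called lower in KO. Of the pluripotency markers, whose sum was highest in KO that day, 4 were tested, 3 called higher and 1 lower. Over all genes on day 7, 17% were called higher and 15.6% lower in KO, and 8.31% and 6.1% in HET. The part of these markers in the results was not tested.

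**Figure D3:**
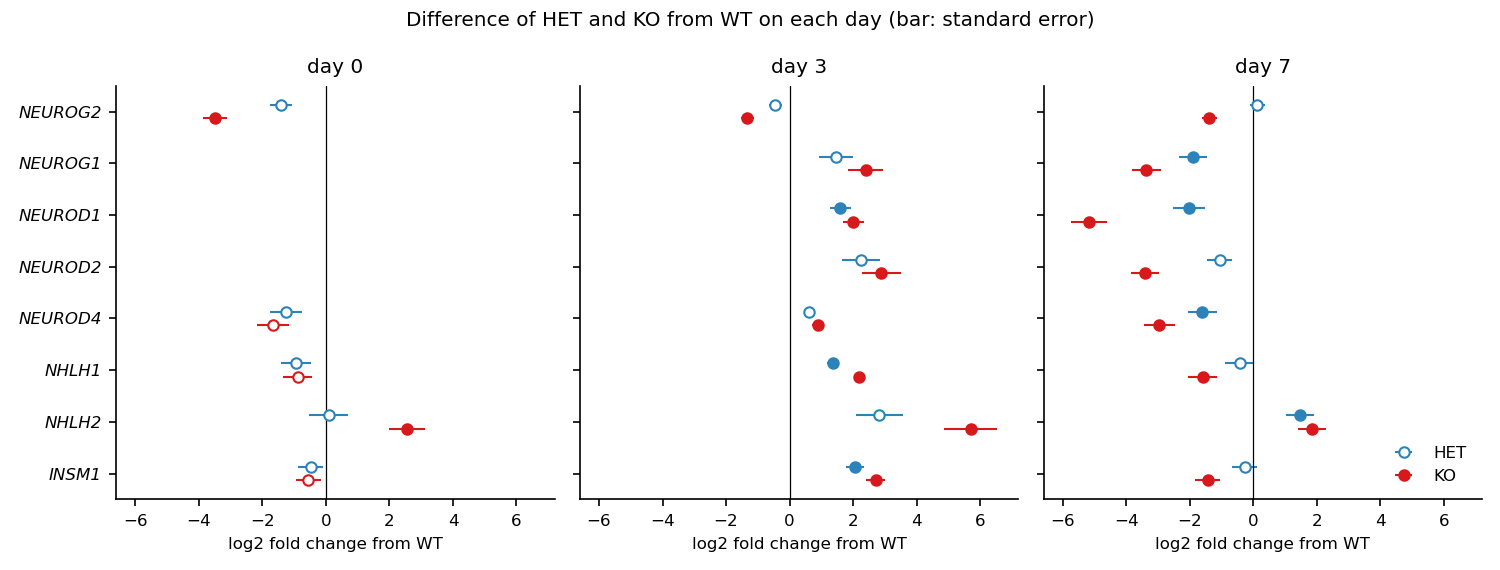
Log2 fold change of HET (blue) and KO (red) from WT on each day, with its standard error; filled points were called at an adjusted p under 0.05 and open points were not. On day 3, 7 KO points lie to the right of 0, and on day 7 the KO points other than NHLH2 lie to the left.

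Time within each genotype showed the turn directly. From day 0 to day 3 all 8 testable genes rose in WT, HET and KO, where 31.2%, 24.4% and 29.7% of genes did. NEUROG1, NEUROD1 and NEUROD2, at 0 to 17 counts per library on day 0, were too low to test that day. They passed the filter through the later days, so they had to rise and their calls support nothing. On day 0 NHLH2 held 1 to 25 counts in WT and 7 to 18 in HET, and NEUROD4 held 7 to 35 in KO. There their passing can also rest on the later days, so these calls support nothing further. In the other cases the remaining 5 had counts on both days. On TPM the calls for NEUROG1 in WT and HET (adjusted p 0.748 and 0.396) and NHLH2 in WT (0.294) were lost. From day 3 to day 7, 6 rose and 1 fell in WT, where 23.3% and 22.9% of genes did; 2 rose and 2 fell in HET, where 20.8% and 20.5% did; and 0 rose and 6 fell in KO, where 24.3% and 23.6% did, with 6 also at an unadjusted p under 0.05 and by DESeq2. The test of the difference gave 6 genes with a larger rise in KO than in WT from day 0 to day 3, where 5.37% of genes were called, and 7 with a more negative change from day 3 to day 7, where 10.9% were. A larger rise can reflect a lower start. NEUROG2, among the 6, was below WT in KO on day 3 (log2 -1.34) and further below on day 0 (log2 -3.48). NEUROD4 in KO against WT was log2 -1.66 on day 0 (adjusted p 0.146, not called) and 0.89 on day 3. For HET the same tests gave 1 gene (INSM1), where 0.182% of genes were called, and 6 genes, where 2.69% were. On TPM these fell to 0 (INSM1 at adjusted p 0.066) and to 1, with NEUROG1, NEUROD2, NEUROD4, NHLH1 and INSM1 lost (0.0577 to 0.402). In KO the calls lost on TPM were NEUROG2 from day 0 to day 3 (0.246) and NHLH2 from day 3 to day 7 (0.139). NEUROD1 from day 0 to day 3 rests on day 0 counts of 0 to 5 in KO and 3 to 13 in WT, and its difference ran from log2 2.40 to 6.16 over the alternatives. NEUROD2 from day 3 to day 7 rests on day 7 counts of 10 to 23 in KO. Single libraries decided some of these differences: the call for NHLH2 in KO to day 3 was lost on leaving out any 1 of 11 libraries (adjusted p 0.0503 to 0.155), namely WT day 0 replicates 2 to 4, KO day 0 replicates 1, 3 and 4, WT day 3 replicates 1 and 4 and KO day 3 replicates 1 to 3. The INSM1 call in HET was lost without any 1 of 7 (0.0534 to 0.0668), namely WT day 0 replicates 2 and 4, HET day 0 replicate 4, WT day 3 replicates 1 and 4 and HET day 3 replicates 2 and 3. The NHLH1 call in HET from day 3 was lost without any 1 of 12 (0.0526 to 0.109), namely WT day 3 replicates 1 to 4, HET day 3 replicates 1 to 3, WT day 7 replicates 2 to 4 and HET day 7 replicates 2 and 3. The NEUROD4 call in HET was lost without WT day 7 replicate 1 (0.052). NEUROG2 was the testable gene without a called difference between KO and WT from day 3 to day 7 (log2 -0.06, SE 0.38).

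Per length, in TPM, the leading gene other than NEUROG2 also differed. INSM1 led in all 12 libraries on day 0, at 0.36 to 2 TPM, and NHLH1 in all 12 on day 3. On day 7 NEUROD1 led in 4 of 4 WT libraries (56.9 to 86.5 TPM) and NHLH2 in 4 of 4 KO libraries (46.6 to 94 TPM), while in HET NHLH1 and NHLH2 led in 2 libraries each. Side by side, KO on day 3 and WT on day 7 held mean NHLH1 levels of 752 and 343 CPM, INSM1 of 257 and 189, NHLH2 of 263 and 93.7, NEUROD4 of 411 and 152, NEUROD1 of 89.4 and 421, and NEUROG1 of 2.18 and 39. Genotype and day both differ between these groups, and they were not tested against each other.

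The genes whose levels tracked a member most closely over the 36 libraries, by Pearson r of log2(CPM + 1) among 13414 genes, are a description, since all libraries share the same time course. NEUROG2 was closest to BCAN, a brain proteoglycan gene (r 0.981), then UNC45B and RAB26. Among the 3 genes likest NHLH1 were FAM110A and CPLX1. NHLH2 was closest to NCAN, another proteoglycan gene (r 0.988), at 16.4 CPM in WT and 391 in KO on day 3, then MLLT11 and ST18. NEUROD1 was closest to PRDM8 (r 0.979), CERKL, which it overlaps, and RASGEF1C. NEUROD4 was closest to MVP, MFNG and CKB (r 0.979 to 0.982), INSM1 to FAM110A, LOXL1 and FNDC5 (r 0.968 to 0.970), NEUROD2 to CCL3L1, ZNHIT3 and KIRREL2 (r 0.940 to 0.957) and NEUROG1 to KIF12, GIPR and BVES-AS1 (r 0.946 to 0.950). Between members, r ran from -0.03 for NEUROG2 with NEUROG1 to 0.966 for NHLH1 with INSM1.

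Other genes of the pathway were described in 4 lists. Of 28 reported proneural targets, 27 were tested in KO against WT on day 3, and 17 were called higher and 2 lower, where 12.6% and 8.93% of all genes were, with a median log2 change of 1.40 beside -0.05 over all genes. SOX4, a neuronal transcription factor, rose from 138 ± 16.4 CPM in WT to 489 ± 114 in KO (SD, n = 4 each; log2 1.82, adjusted p 1.77e-05). DLL4, a Notch ligand, rose from 25.6 ± 2.51 to 77.4 ± 8.94 CPM (log2 1.60, adjusted p 2.25e-05), and INSM2, the paralog of INSM1, from 0.516 ± 0.215 to 24.8 ± 3.79 (log2 5.59, adjusted p 2.99e-05). In HET 10 of 27 were called and all were higher, where 2.52% of genes were, led by DLL4 (log2 1.45) and ELAVL4, a neuronal RNA-binding protein gene (log2 3.52). On day 7 the KO count was 7 higher and 11 lower, where 17% and 15.6% of genes were, with INSM2 still higher (log2 3.5, adjusted p 2.79e-06) and DLL4 lower (log2 -1.91, adjusted p 0.0104), and the HET count was 4 higher and 6 lower, where 8.31% and 6.1% were.

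**Figure D4:**
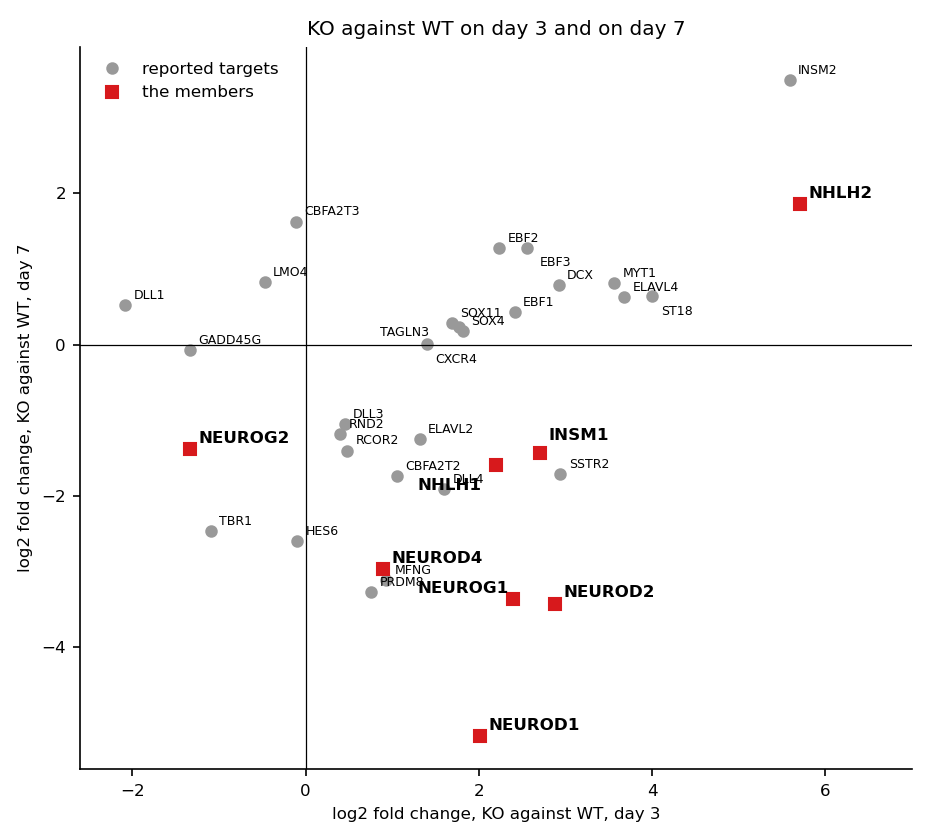
Log2 fold change of KO from WT on day 3 (horizontal) and on day 7 (vertical) for the 8 testable genes (red squares) and the 27 tested reported targets (grey points). The squares for NEUROD1, NEUROD2, NEUROG1, NEUROD4, NHLH1 and INSM1 lie at positive values on day 3 and negative values on day 7, and NHLH2 is positive on both days.

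Of the 3 E protein genes, whose products pair with these factors, 2 were called higher in KO on day 3, where 12.6% of all genes were. TCF12 held 173 ± 32.5 CPM in WT and rose to 448 ± 72.7 CPM in KO (SD, n = 4 each; log2 1.38, adjusted p 0.00022) and TCF4 from 161 ± 24.2 to 256 ± 61.5 (log2 0.67, adjusted p 0.0128), while TCF3 was not called (log2 -0.15). On day 7 TCF3 (log2 -1.53) and TCF4 (log2 -1.61) were lower in KO. In HET on day 3 TCF12 was log2 0.63 (adjusted p 0.0937), and TCF3 was lower on day 7 (log2 -1.04).

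Among 11 antagonists, 2 were called higher and 3 lower in KO on day 3, where 12.6% and 8.93% of all genes were; the share of higher calls is near that of all genes, and the genes named here are single values. REST fell from 58.6 ± 11.7 to 15.4 ± 6.03 CPM (log2 -1.92, adjusted p 0.000154) and HEYL from 84.4 ± 15.2 to 40.6 ± 10.4 (log2 -1.05, adjusted p 0.00105). HEY1 rose from 2.07 ± 0.83 to 7.93 ± 1.03 CPM (log2 1.97, adjusted p 0.000577), and HES5, a Notch target, rose by log2 3.62. The remaining lower gene was HES1, named after its value was seen, at 4.91 ± 5.29 CPM in WT and 0.145 ± 0.227 in KO (log2 -5.00, SE 1.63, adjusted p 0.0426). In HET on day 3 HEY1 (log2 1.24) and HES5 (log2 2.67) were the 2 called, where 2.52% of genes were higher. Of 14 other neural bHLH genes, 9 were tested in KO on day 3: BHLHE23 (log2 4.10) and BHLHE22 (log2 1.46) were higher and ATOH8 was lower, at 59.5 ± 14.1 CPM against 171 ± 21.3 in WT (log2 -1.51, adjusted p 0.000886). With 2 of 9 higher and 1 of 9 lower, these shares are near the 12.6% and 8.93% of all genes. In HET BHLHE23 was higher (log2 2.00) and ATOH8 lower (log2 -1.28), where 2.52% and 0.761% of genes were.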

How the data were processed

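Total RNA depleted of ribosomal RNA was read as 151 bp pairs in 36 libraries, per the labels' protocols. The submitters' processing notes name cutadapt 4.8, FastQC 0.11.8, MultiQC 1.20, STAR 2.7.8a, RSEM 1.3.3 and GRCh38; the annotation release and the use of strand were not given in the sources used here. The authors deposited TPM and expected counts, and all values of the latter were whole, so none was rounded. CPM were computed from the deposited counts over 62710 genes, after leaving out 4 reporter rows; intervals for single libraries were not computed.

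Genotypes were compared on the 12 libraries of a day, days on the 12 libraries of a genotype, and interactions on all 36, with edgeR 4.0.16 (R 4.3.3): quasi-likelihood F tests after TMM scaling and filterByExpr, with Benjamini-Hochberg adjustment over all tested genes and a threshold of 0.05. The standard error is the fold change divided by the root of F. "Adjusted p" means this test unless another is named. Folds without a log2 are ratios of mean CPM. Alternatives were DESeq2 1.42.0, its size factors, no filter, limma 3.58.1 on log2(TPM + 1), the replicate block, a small structural RNA covariate and leaving out each library. Same-numbered libraries deviated together, with all 4 correlations over 0.1, for KO with WT on day 0 (0.259 to 0.644) and day 3 (0.129 to 0.564) and HET with WT on day 3 (0.166 to 0.779). In these comparisons 4, 3 and 2 of the 4 mutant libraries correlated best with the WT library of their own number. The labels name no shared origin.

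The members and lists were chosen with earlier results of these data known. Named genes were the members, RAI1, the 3 likest genes of each member with a group mean of at least 5 CPM, and from each list up to 3 genes with the smallest adjusted p in KO and up to 2 in HET against WT on day 3. The fits were first tested on simulated counts with 200 genes changed. For KO against WT on day 3, 32.6% of changes of log2 1 and 84.2% of changes of log2 2 were recovered. With the replicate block these shares were 24.4% and 78.9%. A gene that was not called can therefore still differ. One gene that the rule names is not reported here. Positions are from GENCODE 29 and promoter windows from RefSeq. Figures were drawn with matplotlib 3.10.9.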

Additional observations from a re-analysis of the deposited data

Results flagged for a closer look

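In 20 cases the change over time differed between a mutant and WT by the interaction test. From day 0 to day 3 the rise in KO exceeded that in WT, on the log2 scale, by 2.19 for NEUROG2, 4.38 for NEUROD1, 2.58 for NEUROD4, 3.14 for NHLH1, 3.21 for NHLH2 and 3.31 for INSM1. The NEUROG2 value reflects a lower KO start (log2 -3.48 against WT on day 0), since KO was also below WT on day 3 (log2 -1.34). For NEUROD4, KO against WT was log2 -1.66 on day 0, which was not called, and 0.89 on day 3. The NEUROD1 value rests on day 0 counts of 0 to 5 in KO and 3 to 13 in WT and ran from 2.40 to 6.16 over the alternatives. From day 3 to day 7 the KO change was below that of WT by a log2 difference of -5.79 for NEUROG1, -7.21 for NEUROD1, -6.33 for NEUROD2, -3.88 for NEUROD4, -3.81 for NHLH1, -3.87 for NHLH2 and -4.16 for INSM1. The NEUROD2 value rests on day 7 counts of 10 to 23 in KO. In HET the INSM1 rise to day 3 exceeded that of WT by 2.56, and from day 3 to day 7 the difference was -3.34 for NEUROG1, -3.61 for NEUROD1, -3.29 for NEUROD2, -2.19 for NEUROD4, -1.76 for NHLH1 and -2.31 for INSM1.

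In 3 of 69 gene and group sets of 4 libraries, 1 library stood far from the others, where chance gives about 3.45: NEUROG1 at 0.322 CPM and NEUROD1 at 0.498 CPM in HET day 0 replicate 1, and NEUROD4 at 32.7 CPM in KO day 7 replicate 4. The egfp reporter row, used in no comparison, held over 3 counts in 16 libraries and at most 35 counts, in WT day 0 replicate 3.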

How the results depend on the processing

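Of 93 calls, 61 held under every alternative run and none reversed; 28 were lost with limma on log2(TPM + 1), 14 without some library, 1 without the filter and 1 with the structural RNA covariate, and none with DESeq2, its size factors or the replicate block. The cause was not tested. With limma on TPM the median of all genes moved by over 0.1, to 0.20 in KO and 0.13 in HET against WT on day 3 and to 0.18 and 0.46 on day 7. Genes with few counts, such as NEUROG1 on day 3, are limited by depth.

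The number of members called against WT in KO went from 2 to 1 on day 0, 8 to 6 on day 3 and 8 to 5 on day 7 with limma on TPM, and in HET from 3 to 0 on day 3, 4 to 2 on day 7, 1 to 0 in the day 0 to 3 difference and 6 to 1 in the day 3 to 7 difference. For KO against HET limma on TPM gave 0, 1 and 1 on days 0, 3 and 7. DESeq2 gave 1 in HET on day 0, 6 on day 3 and 2 in the day 0 to 3 difference, and 2 for KO against HET on day 0. Without the filter HET gave 1 on day 0 and 5 on day 3, and with the structural RNA covariate HET gave 1 on day 0 and KO against HET 5 on day 7.

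With the replicate block, HET against WT gave 1 on day 0 (NEUROG2) and 7 on day 3; for KO against HET it added INSM1 on day 3 (adjusted p 0.0492) and NEUROG1 on day 7 (0.0184), and it changed no other call of a member. Of these comparisons only HET against WT on day 3 had all 4 correlations of same-numbered libraries over 0.1.

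Leaving out 1 library at a time gave 1 to 2 members on day 0 in KO against WT, 0 to 1 in HET and 0 to 1 in KO against HET; on day 3 2 to 6 in HET and 1 to 3 in KO against HET; on day 7 1 to 5 in HET; and 0 to 2 in the HET difference from day 0 to 3.

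Direction changed only for values that were not called. On TPM, NHLH2 in HET on day 0 was -0.0065, NHLH1 and INSM1 in HET on day 7 were 0.383 and 0.451, the KO-WT difference of NEUROG2 from day 3 to 7 was 0.10, and the HET-WT difference of NHLH2 was 0.618. INSM1 in HET on day 7 was 0.078 with the covariate, and from day 3 to 7 in HET -0.018 without the filter. Without 1 library, log2 values ran from -0.286 to 0.484 for NHLH2 in HET on day 0, -0.301 to 0.609 for NHLH1 and -0.391 to 0.242 for INSM1 in KO against HET on day 0, -0.051 to 0.376 for NEUROG2 in HET on day 7, -0.383 to 0.299 for INSM1 in HET from day 3 to 7, and -0.189 to 0.182 for the KO-WT difference of NEUROG2 from day 3 to 7.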
